A study of Mus musculus with 15 samples.

Results

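FXRα4 is the form of the bile acid receptor FXR that lacks a short insert beside its DNA-binding domain and has the longer of the receptor's N-termini. Its effect on gene expression was read from 3 arrays of mouse hepatocytes given an FXRα4 adenovirus, set against 3 arrays of hepatocytes given a GFP adenovirus, which are 6 of the 15 arrays of the study. One probe set stood for each gene, the one with the highest mean among those annotated to a single symbol, which gave 18820 genes. The FXRα4 cells were primary hepatocytes of male C57BL/6J mice, infected overnight with an adenovirus that carried human FXRα4 together with GFP under a CMV promoter of its own. The FXRα2 and FXRα3 cells, used for direct comparisons, carried those human forms in the same kind of virus (3 arrays each), and the GFP cells carried the virus with GFP alone. All were kept after infection in medium without dexamethasone and insulin, and RNA was taken 36 h after infection. No source used here gives the age of the mice. The receptor was added by virus to cells that still have their own mouse FXR, so a level seen here belongs to cells with both. The labels do not say whether replicates came from separate mice or cultures, so each p-value measures only how far these samples spread, which may be a technical spread.

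FXR is a nuclear receptor that hepatocytes use to sense bile acids. It pairs with the retinoid X receptor on DNA and is known for raising bile salt export, for lowering bile acid synthesis through the small heterodimer partner SHP, and for roles in lipid and glucose metabolism. The Fxr gene (Nr1h4) gives 4 forms by promoter choice and splicing. FXRα1 and FXRα3 carry an insert of the amino acids MYTG next to the DNA-binding domain, and FXRα2 and FXRα4 lack it. FXRα3 and FXRα4 share the longer N-terminus. FXR is best known for binding an inverted repeat of the nuclear receptor half-site with 1 base between (IR-1), and the forms without the insert are known to bind further arrangements such as an everted repeat with 2 bases between (ER-2).

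Values are log2 probe set levels as deposited, differences are FXRα4 minus GFP on the log2 scale with a standard error from limma, and p-values are limma's, with a Benjamini-Hochberg adjustment across the 18820 genes. A gene is said to have risen or fallen when its adjusted p was under 0.05. The labelled cell type was checked with 13 hepatocyte markers, which were all above the median gene with FXRα4, while 1 lay below it with GFP. Their mean level per array was 10.16 to 10.19 with FXRα4 and 10.06 to 10.10 with GFP. A culture is a bulk sample, in which fewer cells of a type and less RNA per cell cannot be told apart. Most markers of 4 classes of other liver cells lay below the median gene: with FXRα4 this held for 12 of 13 Kupffer cell markers, 11 of 12 sinusoidal endothelial markers, 12 of 13 stellate cell and fibroblast markers, and 12 of 12 lymphocyte and neutrophil markers. Of 9 cholangiocyte markers 4 lay below it with FXRα4 and 6 with GFP. GFP replicate 1 stood apart from the other GFP arrays in interferon-stimulated genes, which are given with and without it. The sinusoidal list had 2 falls, the stellate list had 1 rise and 1 fall, and the Kupffer and lymphocyte lists had 0 of either in limma. Among the dimmest 4705 genes only 1.8% rose and 2.2% fell, so dim markers would rarely pass. Nr1h4 on this array is annotated as the mouse gene, and whether its probes also read the human transgene was not tested. It is therefore no check of the transgene, and its difference may not be one of the mouse gene alone. The Nr1h4 values were 7.39, 7.42 and 7.33 with FXRα4, against 6.94, 6.94 and 7.03 with GFP. All FXRα4 arrays lay above all GFP arrays, by 0.41 ± 0.07, adjusted p = 0.000117. Across genes, which are not independent replicates, FXRα4 arrays correlated with each other with r from 0.9974 to 0.9979, GFP arrays with each other with r from 0.9983 to 0.9984, and FXRα4 arrays with GFP arrays with r from 0.9854 to 0.9883.

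FXRα4 raised genes of cell division, a lipid droplet gene and the epithelial adhesion gene Epcam, and it lowered the iodide transporter gene Slc5a5, the tyrosine catabolism gene Tat and many genes of glutathione metabolism. In all, 3392 genes rose (18.0% of those tested) and 2960 fell (15.7%), so 33.8% of genes changed. Changes of at least 2-fold were found in 570 genes (3.03%), 455 of them rises (2.42%) and 115 falls (0.611%). At 4-fold and above there were 82 rises (0.436%) and 3 falls (0.0159%), and at 8-fold and above 12 rises (0.0638%) and 0 falls. By level, 83 genes rose and 104 fell among the dimmest 4705 genes, whereas 1182 rose and 1362 fell among the brightest 4705. The share that changed thus depends on level, and the gene lists below were not matched for level. Counts of list members against GFP are to be read beside the shares of all genes, 18.0% rising and 15.7% falling. Of the genes that changed 53.4% rose, against 16.3% after median centring of every array, a scaling that moved the median change of all genes by −0.21. A rise smaller than that shift therefore depends on the scaling. With median centring the median change of all genes was −0.24. A centred list median against GFP is therefore to be compared with −0.24 and not with 0. The median level per array was 5.80 to 5.88 with FXRα4 and 5.60 to 5.63 with GFP, and its part in the counts was not tested. With that centring there were 289 rises and 263 falls of at least 2-fold. With 16 added to the linear values before log2, which shrinks changes of dim genes, there were 289 rises and 77 falls of at least 2-fold and 38 rises of at least 4-fold. With the array's 75th percentile as the centre 56.1% of the changed genes rose, and with quantile normalization 48.0%.

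**Figure D1:**
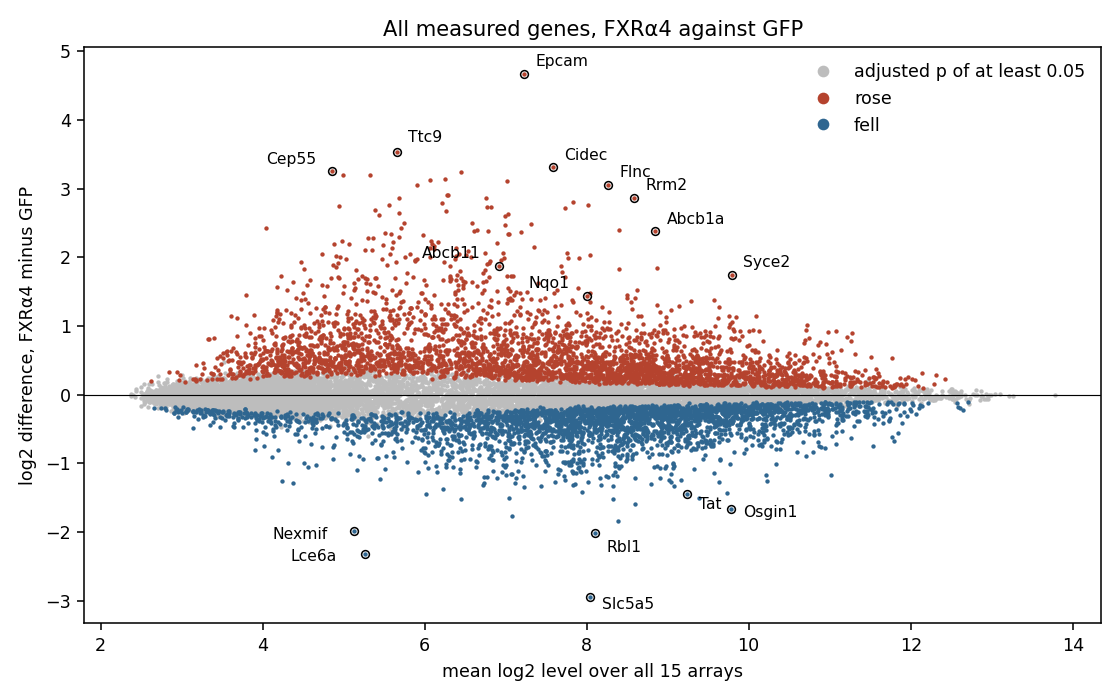
Log2 difference between FXRα4 and GFP (vertical axis) against the mean log2 level over all 15 arrays (horizontal axis), 1 point per gene, for 18820 genes. Red points rose, blue points fell and grey points had an adjusted p of at least 0.05; named genes are ringed. The largest rises reach 4.68 and the largest falls −2.95, and large rises outnumber large falls.

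Epcam, an adhesion protein of epithelial cells that is also a marker of bile duct and progenitor cells in liver, had the largest rise. Its values were 9.67, 9.63 and 9.79 with FXRα4, against 5.05, 4.91 and 5.10 with GFP. The groups lay 4.68 apart on the log2 scale with no overlap (4.68 ± 0.10, adjusted p = 8.73e-19), which is 25.6-fold. Cidec, a lipid droplet protein through which small droplets pass their fat to larger ones, stood at 9.38, 9.27 and 9.40 with FXRα4, against 5.95, 5.98 and 6.20 with GFP. That difference of 3.31 ± 0.10, adjusted p = 3.32e-16, was several times any spread within a group. Ttc9, a tetratricopeptide repeat gene, stood at 7.81, 7.82 and 8.02 with FXRα4, against 4.23, 4.39 and 4.44 with GFP (3.54 ± 0.12).

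Several of the 15 largest rises were genes of cell division. Cep55, which acts in the final cut between daughter cells, stood at 7.03, 7.18 and 7.55 with FXRα4, against 4.23, 3.96 and 3.80 with GFP (3.25 ± 0.17). Nek2, a kinase that parts the centrosomes at the start of mitosis, stood at 8.52, 8.59 and 8.80 with FXRα4, against 5.54, 5.46 and 5.56 with GFP (3.12 ± 0.12). For both, every FXRα4 array was far above every GFP array. Cdc20, which activates the anaphase-promoting complex, stood at 7.87, 7.89 and 8.40 with FXRα4, against 4.96, 5.22 and 5.28 with GFP (2.90 ± 0.20). Rrm2, the small subunit of the ribonucleotide reductase that supplies DNA precursors, stood at 10.28, 10.12 and 10.55 with FXRα4, against 7.41, 7.41 and 7.52 with GFP (2.87 ± 0.14). In each of these 4 the lowest FXRα4 array was more than 2 log2 units above the highest GFP array. The other large rises were spread over gene families. They were the T-box factor gene Eomes (3.24 ± 0.14), the T-cell costimulatory ligand gene Cd80 (3.20 ± 0.18), the long noncoding RNA gene Flicr (3.20 ± 0.14), the cytokine gene Il17d (3.14 ± 0.12), the leucine-rich repeat gene Lrrc2 (3.13 ± 0.13), the filamin gene Flnc (3.06 ± 0.08), the very long chain fatty acid elongase gene Elovl4 (3.05 ± 0.12) and the ephrin gene Efnb2 (2.91 ± 0.14). Of 12 lymphocyte and neutrophil markers 0 rose and 0 fell, and their mean level was 3.62 to 3.84 with FXRα4 and 3.66 to 3.78 with GFP. All 12 lay below the median gene. Among the dimmest 4705 genes only 1.8% rose and 2.2% fell, so a count of 0 says little. The part of lymphocytes in the rises of Cd80 and Eomes was not tested.

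Among the brightest genes, those above the 75th percentile of mean level, rises were led after Rrm2 by the multidrug transporter gene Abcb1a, at 9.20, 9.39 and 9.43 with FXRα4, against 6.98, 6.85 and 7.05 with GFP (2.38 ± 0.07). Sfn (stratifin), which encodes a 14-3-3 protein of epithelia, stood at 9.49, 9.53 and 9.87 with FXRα4, against 8.02, 7.79 and 7.53 with GFP (1.85 ± 0.12). Syce2, known from the synaptonemal complex of meiotic cells, stood at 10.52, 10.57 and 10.73 with FXRα4, against 8.80, 8.86 and 8.92 with GFP (1.75 ± 0.07). No FXRα4 array of these 3 genes reached down to a GFP array. Ckap2, a spindle protein gene, rose by 1.53 ± 0.07, the adhesion receptor gene Adgrg1 by 1.45 ± 0.06, the creatine transporter gene Slc6a8 by 1.41 ± 0.06 and the Krüppel-like factor gene Klf5 by 1.41 ± 0.08.

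In all, 3 genes fell by 4-fold or more. Slc5a5, the sodium iodide symporter gene best known from the thyroid, stood at 6.50, 6.47 and 6.66 with FXRα4, against 9.33, 9.44 and 9.71 with GFP, a difference of −2.95 ± 0.11, adjusted p = 1.46e-14. Lce6a, a late cornified envelope gene, stood at 4.48, 4.97 and 4.62 with FXRα4, against 6.97, 6.94 and 7.12 with GFP (−2.32 ± 0.12). Rbl1, which encodes the retinoblastoma relative p107 that represses cell cycle genes, stood at 6.78, 6.94 and 6.79 with FXRα4, against 8.90, 8.86 and 8.81 with GFP (−2.02 ± 0.07). For Rbl1 a dimmer probe set went the other way: when every probe set was tested, it rose by 0.43 (adjusted p = 0.0102). Rbl1 is therefore uncertain.

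The next falls were in the brain-expressed gene Nexmif (−1.99 ± 0.15), the vasopressin receptor gene Avpr1a (−1.84 ± 0.10) and the lysophospholipid acyltransferase gene Mboat1 (−1.77 ± 0.11). Osgin1, a growth inhibitor gene induced by oxidative stress, stood at 9.17, 9.26 and 9.12 with FXRα4, against 10.85, 10.83 and 10.86 with GFP (−1.66 ± 0.06). The Wnt co-receptor gene Lrp5 fell by 1.59 and the ligand gene Wnt9a by 1.5, with standard errors of 0.07 and 0.09. Others of the 15 largest were the actin-binding gene Shroom1 (−1.53 ± 0.08), the retinol dehydrogenase gene Dhrs9 (−1.52 ± 0.10), Ifrd2 (−1.51 ± 0.07) and the somatostatin receptor gene Sstr2 (−1.45 ± 0.12). Umps, which makes the pyrimidine nucleotide UMP, stood at 8.57, 8.63 and 8.75 with FXRα4, against 10.03, 10.07 and 10.18 with GFP (−1.44 ± 0.05). Tat, the tyrosine aminotransferase gene, stood at 8.67, 8.70 and 8.53 with FXRα4, against 10.02, 10.14 and 10.07 with GFP (−1.44 ± 0.07). Both genes had narrow groups that did not overlap. Bright genes that also fell were the matrix glycoprotein gene Tinagl1 (−1.33 ± 0.06), Bmp6 (−1.30 ± 0.07) and the proteasome assembly chaperone gene Psmg2 (−1.28 ± 0.06).

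**Figure D2:**
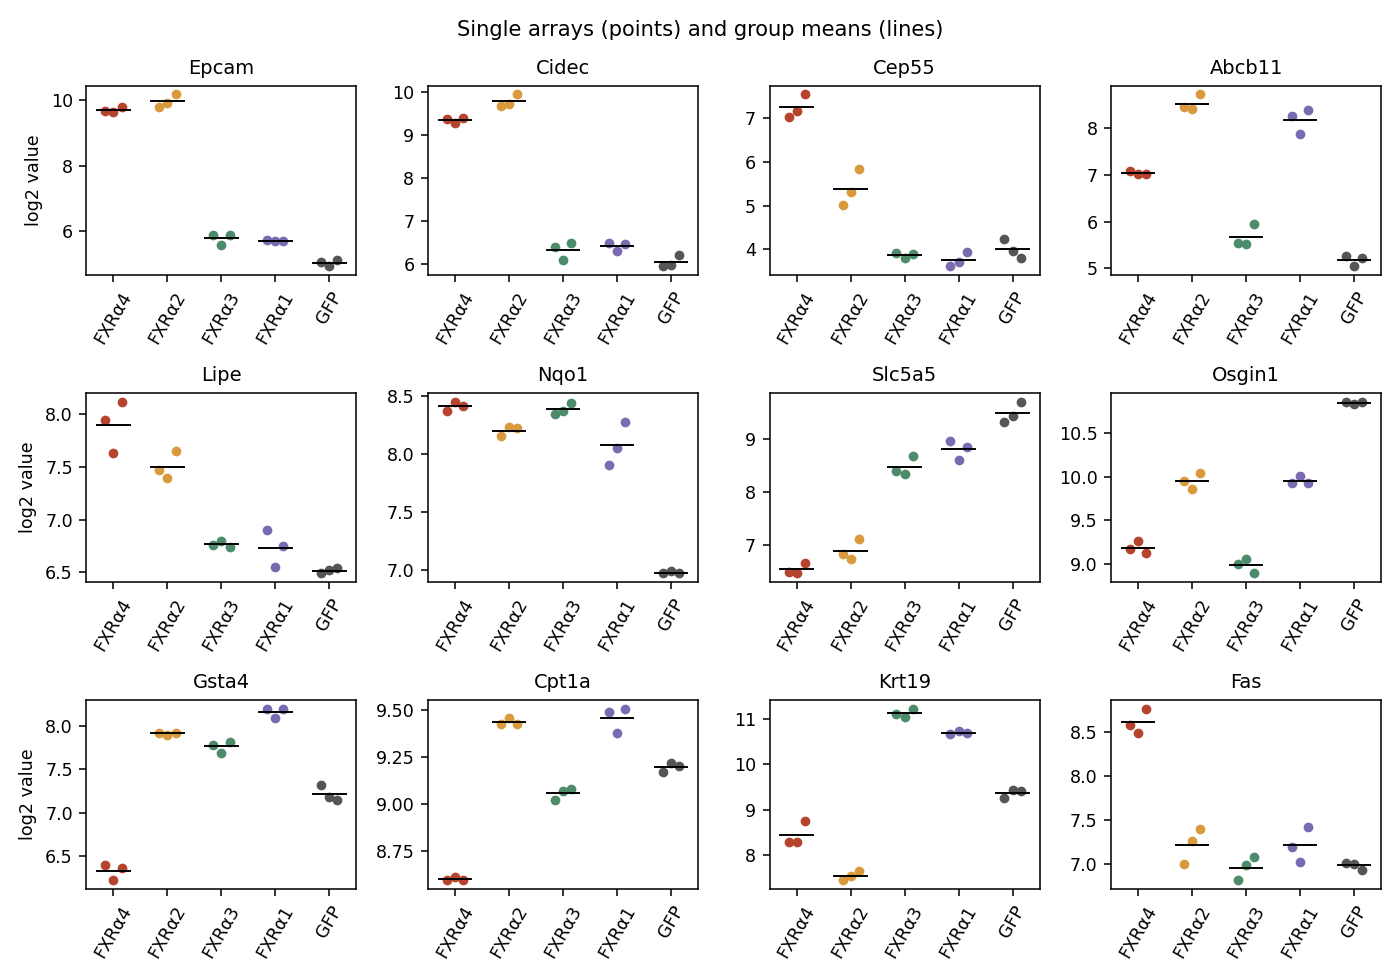
Log2 values of 12 genes on single arrays (points) with group means (lines), 3 arrays per group, in the order FXRα4, FXRα2, FXRα3, FXRα1 and GFP; each panel has its own vertical axis. Epcam and Cidec are high with FXRα4 and FXRα2, Cep55 and Fas are highest with FXRα4, and Gsta4 and Cpt1a are lowest with FXRα4.

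Genes that drive cells through division were the group with the most rises. Cyclin-dependent kinases license DNA replication and then mitosis, and many mitotic genes share a promoter element, the cell cycle homology region (CHR), through which they are shut off in resting cells. Of 69 measured cell cycle genes 45 rose and 10 fell, with a median log2 difference of 0.63 (0.42 with median centring), against a median of −0.03 over all genes. Mitosis genes made up most of this: 25 of 26 rose, 19 of them by at least 2-fold, and 0 fell, with a median of 1.69 (1.47 with median centring). Of 21 genes of replication and nucleotide supply 12 rose and 3 fell (median 0.31, or 0.09 with median centring). Of 22 G1 cyclins, their inhibitors and E2F factors 8 rose and 7 fell (median 0.10, but −0.12 with median centring).

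Promoter sequences of these genes are shown because the CHR was in most mitosis promoters. RefSeq windows of 300 bases (GRCm38.p6), 250 before and 50 after the start of transcription, were on hand for 23 of the 26 mitosis genes. The CHR letters TTTGAA, on either strand, were in 18 of the 23 windows (78.3%), in 2 of 18 replication gene windows (11.1%) and in 20.2% of the windows of all 27025 genes. The CCAAT box, searched as CCAAT on either strand, which can overlap a CHR match by at most 1 base, was in 73.9% of mitosis windows, 77.8% of replication windows and 41.1% of all windows. Both motifs were chosen after the data were seen, a match is a description and not a site, and the stretches below run from 25 bases before the match to the start of transcription on the gene's own strand, with the CHR in capitals. Cdc20 and Prc1 are members of the mitosis list, and Cep55 and Ncapg are not but were named for the size of their differences.
Cdc20 (chr4:118437344-118437386, minus strand): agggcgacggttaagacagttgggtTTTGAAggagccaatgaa
Prc1 (chr7:80294421-80294475, plus strand): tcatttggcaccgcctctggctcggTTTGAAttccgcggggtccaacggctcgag
Cep55 (chr19:38054983-38055038, plus strand): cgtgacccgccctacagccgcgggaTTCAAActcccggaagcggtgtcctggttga
Ncapg (chr5:45669870-45669924, plus strand): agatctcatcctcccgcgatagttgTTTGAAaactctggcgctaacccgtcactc
In these stretches the match begins 18 bases before the start in Cdc20, 30 in Prc1 and in Ncapg, and 33 in Cep55, where it reads on the opposite strand.

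Among the mitosis genes, the checkpoint kinase gene Bub1 stood at 5.36, 5.78 and 6.47 with FXRα4, against 3.39, 3.46 and 3.47 with GFP (2.43 ± 0.20). Kif23, a motor of the central spindle, stood at 7.08, 6.96 and 7.32 with FXRα4, against 4.57, 4.49 and 4.46 with GFP (2.62 ± 0.16). Prc1, which bundles microtubules there, stood at 7.74, 8.07 and 8.27 with FXRα4, against 5.25, 5.14 and 5.33 with GFP (2.79 ± 0.17). These 3 separated the groups without overlap, yet a dimmer probe set of Prc1 did not pass when every probe set was tested (0.13, adjusted p = 0.401). The aurora kinase genes Aurka (1.98 ± 0.12) and Aurkb (1.93 ± 0.16) and the centromere histone gene Cenpa (1.87 ± 0.09) rose as well. Cdk1, the kinase that starts mitosis, rose less, by 0.92 ± 0.08. Outside the list, the condensin subunit gene Ncapg stood at 5.64, 5.79 and 6.38 with FXRα4, against 4.06, 4.03 and 4.23 with GFP (1.83 ± 0.16). The replicates were not equal: FXRα4 replicate 3 was the highest of its group in all of Cep55, Nek2, Cdc20, Bub1, Kif23, Prc1, Aurka, Aurkb and Ncapg. Left out in turn, no single array ended the call of any of them. The kinesin gene Kif18b was among the larger rises (2.86 ± 0.13), but its dimmer probe set stood at 0.18 (adjusted p = 0.152).

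Changes outside mitosis were mixed. Pclaf, a binding partner of the replication clamp, stood at 8.32, 8.23 and 8.68 with FXRα4, against 5.97, 6.04 and 6.06 with GFP (2.39 ± 0.14). Cdt1, which licenses replication origins, went down to 7.70, 7.65 and 7.83 with FXRα4, against 8.90, 8.94 and 8.96 with GFP (−1.21 ± 0.08), and none of its FXRα4 arrays came within 1 log2 unit of a GFP array. The inhibitor gene Cdkn1a (p21), a bright gene, fell by 0.31 to 11.57, 11.72 and 11.75 with FXRα4, against 11.98, 11.98 and 12.03 with GFP. In the plot of cell cycle genes, the mitosis panel lies to the right of 0 for every comparison, and the G1 panel spreads to both sides.

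**Figure D3:**
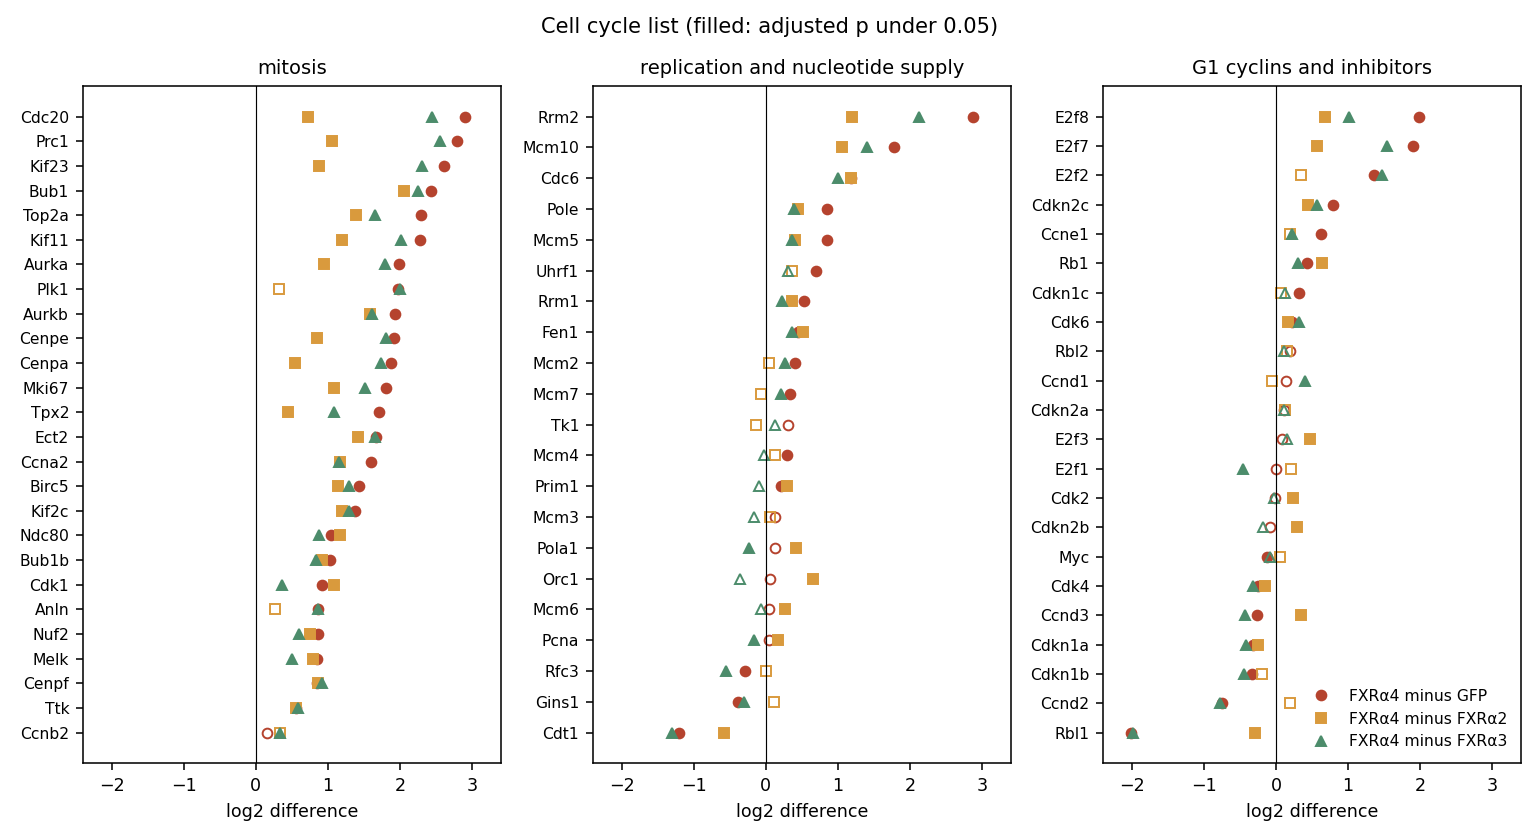
Log2 differences (horizontal axes) of FXRα4 from GFP (circles), from FXRα2 (squares) and from FXRα3 (triangles) for the 69 measured cell cycle genes in 3 panels; filled symbols have an adjusted p under 0.05. All 26 mitosis genes lie above 0 in each comparison, whereas Cdt1 and Rbl1 lie to the left of 0 against GFP.

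Known FXR targets were mixed: the bile salt export gene Abcb11 rose and the feedback gene Nr0b2 fell. Of 34 measured FXR targets 16 rose (47.1%) and 8 fell (23.5%), with a median of 0.20, which became −0.01 with median centring. The largest fall on the list was −1.66, the value given above for Osgin1, and 1 member fell by at least 2-fold. The count of falls was 5 without FXRα4 replicate 2, 4 without FXRα4 replicate 3 and 5 without GFP replicate 1. Abcb11, the bile salt export pump and the best known direct target of FXR, stood at 7.08, 7.03 and 7.03 with FXRα4, against 5.27, 5.04 and 5.21 with GFP. All FXRα4 arrays were above all GFP arrays, by 1.87 ± 0.13, adjusted p = 8.52e-11 or 3.66-fold. Against the same GFP arrays its difference was 3.36 with FXRα2, 0.49 with FXRα3 and 3.01 with FXRα1. The Abcb11 promoter is printed because it was the only FXR target window with an IR-1-like match. The letters AGGTCANTGACCT were searched on both strands with up to 2 mismatches and were found in 1.3% of all windows. The stretch below has 25 bases on either side of its 2 matches, which are in capitals and begin 94 and 63 bases before the start of transcription.
Abcb11 (chr2:69342642-69342735, minus strand): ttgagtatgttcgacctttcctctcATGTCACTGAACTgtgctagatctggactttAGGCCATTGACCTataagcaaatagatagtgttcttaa
The half-site AGGTCA, which is also a part of the IR-1 and ER-2 letters, was without mismatch in 9 of 26 FXR target windows (34.6%), in 1 of 15 windows of the largest rises (6.7%) and in 18.1% of all windows.

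Nr0b2, the SHP gene, stood at 4.45, 4.20 and 4.16 with FXRα4, against 4.75, 4.60 and 4.61 with GFP. Its groups did not overlap and it fell by 0.39 (−0.39 ± 0.13, adjusted p = 0.0198), a call lost without FXRα4 replicate 2, FXRα4 replicate 3 or GFP replicate 1. Among lipid genes on the list, the pyruvate dehydrogenase kinase gene Pdk4 stood at 7.19, 7.30 and 7.69 with FXRα4, against 6.29, 6.31 and 6.05 with GFP (1.17 ± 0.12). Creb3l3, the liver factor CREBH that acts on triglyceride genes, is not on the FXR target list. It stood at 8.71, 8.62 and 8.75 with FXRα4, against 6.72, 6.53 and 6.63 with GFP (2.06 ± 0.07). Apoc2, the cofactor of lipoprotein lipase, stood at 9.50, 9.58 and 9.84 with FXRα4, against 8.75, 8.81 and 8.75 with GFP (0.87 ± 0.07). These lipid genes were higher on each FXRα4 array than on any GFP array, whereas the scavenger receptor gene Scarb1 fell by 0.31 to 9.63, 9.57 and 9.61 with FXRα4, against 9.84, 9.95 and 9.94 with GFP. The fibrinogen genes Fga (0.48 ± 0.08) and Fgg (0.55 ± 0.10) rose. Fgf15, a gut hormone gene in mice, stood at 4.11, 4.28 and 3.98 with FXRα4, against 4.26, 4.40 and 4.18 with GFP (−0.15 ± 0.13, adjusted p = 0.419), and it passed as a fall with median centring (−0.366, adjusted p = 0.0432).

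The list of bile acid synthesis and conjugation held more falls than rises, in part through its regulators. Of its 22 genes 4 rose and 8 fell, with a median of −0.14 (−0.35 with median centring), and 5 fell without FXRα4 replicate 3. Of the 8 falls 3 were among 4 regulator genes, which are not enzymes and had 0 rises. Cyp7a1, the rate-limiting enzyme of the classical pathway, stood at 3.28, 2.99 and 3.09 with FXRα4, against 3.13, 3.28 and 3.23 with GFP (−0.09 ± 0.08, adjusted p = 0.432). These values lie within the range of the dimmest 4705 genes, whose means reach up to 3.83, and with median centring Cyp7a1 passed as a fall (−0.304, adjusted p = 0.0153). On the deposited scale the 5 genes of the classical pathway had 0 rises and 0 falls in limma. Amacr, a racemase of side chain shortening, stood at 7.40, 7.50 and 7.46 with FXRα4, against 7.98, 8.23 and 8.19 with GFP (−0.68 ± 0.09). The receptor genes that bring the gut signal FGF15 to hepatocytes both fell: Klb stood at 5.79, 5.94 and 6.09 with FXRα4, against 6.54, 6.64 and 6.74 with GFP (−0.70 ± 0.11), and Fgfr4 stood at 6.50, 6.33 and 6.20 with FXRα4, against 6.99, 6.87 and 6.97 with GFP (−0.60 ± 0.10). Neither gene's groups overlapped. The rises were in Cyp39a1, an oxysterol hydroxylase (0.75 ± 0.07), in Ch25h (0.42 ± 0.12), in Cyp2c70, which makes muricholic acids in mice (0.41 ± 0.05), and in the bile acid CoA ligase gene Slc27a5 (0.42 ± 0.06). The Ch25h call was lost without FXRα4 replicate 1, without GFP replicate 2 and with median centring.

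Of 21 hepatobiliary transporters 8 rose and 5 fell (median 0.12, but −0.09 with median centring), with 5 rises and 3 falls left without FXRα4 replicate 3 and 6 and 3 without GFP replicate 1. Beside Abcb11 and Abcb1a, the other mouse multidrug transporter gene Abcb1b rose by 0.62 ± 0.06, at 10.39, 10.41 and 10.60 with FXRα4, against 9.90, 9.85 and 9.80 with GFP. Abcb1a and Abcb1b are closely related genes, and their probe sets may share signal. Atp8b1, a flippase of the canalicular membrane, rose by 0.45 ± 0.09. The phosphatidylcholine floppase gene Abcb4 rose by 0.34 ± 0.07, a call lost with median centring. Abcc2, the canalicular conjugate pump, fell by 0.35 to 10.38, 10.40 and 10.36 with FXRα4, against 10.72, 10.76 and 10.70 with GFP. The basolateral pump gene Abcc4 stood at 9.15, 9.13 and 9.29 with FXRα4, against 9.94, 9.94 and 9.93 with GFP (−0.75 ± 0.07). The cholesterol half-transporter gene Abcg8 fell by 0.50, with groups that overlap (−0.50 ± 0.13, adjusted p = 0.00506).

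The lipase genes Pnpla2 and Lipe and the droplet genes of the Cidec family rose, whereas the perilipin gene Plin2 fell. Fat leaves lipid droplets when the lipase ATGL (Pnpla2), helped by its coactivator CGI-58 (Abhd5), and then hormone-sensitive lipase (Lipe) cut triglyceride, and perilipins on the droplet control their access. Of 25 genes 10 rose and 7 fell (median −0.05, or −0.27 with median centring), and without FXRα4 replicate 2 there were 4 falls. Lipases and their cofactors had 4 rises and 4 falls among 13 genes, and coat and CIDE proteins 6 rises and 3 falls among 12, or 6 and 1 without FXRα4 replicate 2. The median was 0.09 without GFP replicate 1. Pnpla2 stood at 10.19, 10.32 and 10.35 with FXRα4, against 9.24, 9.39 and 9.47 with GFP (0.92 ± 0.07). Abhd5 stood at 10.01, 9.92 and 10.03 with FXRα4, against 9.38, 9.34 and 9.34 with GFP (0.64 ± 0.05). Lipe stood at 7.94, 7.63 and 8.12 with FXRα4, against 6.49, 6.52 and 6.54 with GFP (1.38 ± 0.11). In all 3 the lowest FXRα4 array was higher than the highest GFP array. The other droplet genes of the Cidec family rose too, Cidea by 0.68 ± 0.10 and Cideb by 0.61 ± 0.06, and the carboxylesterase gene Ces1g rose by 0.72 ± 0.11. On the side of the falls, Plin2, the main perilipin of hepatocytes, stood at 11.99, 12.05 and 12.04 with FXRα4, against 12.28, 12.29 and 12.25 with GFP (−0.24 ± 0.03). Hilpda, an inhibitor of ATGL, fell by 0.50 (−0.50 ± 0.11), and the lysosomal lipase gene Lipa by 0.27 (−0.27 ± 0.06). G0s2, another ATGL inhibitor, stood at 5.46, 5.05 and 5.22 with FXRα4, against 5.74, 5.58 and 5.75 with GFP (−0.44 ± 0.12), a call lost without FXRα4 replicate 2.

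The promoter of Cidec is shown because it was the only window among the 15 largest rises with an ER-2-like match, the letters TGACCTNNAGGTCA with up to 2 mismatches, which were in 1.7% of all windows. The same search matched 0 of 26 FXR target windows. An IR-1-like match, also with up to 2 mismatches, was in 0 of the 15 windows of the largest rises. The match, in capitals, begins 129 bases before the start of transcription, and the stretch holds 25 bases on either side of it.
Cidec (chr6:113434855-113434918, minus strand): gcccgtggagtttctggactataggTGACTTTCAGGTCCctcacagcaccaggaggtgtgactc

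Fatty acid oxidation genes moved both ways, 23.5% each, against 18.0% of all genes rising and 15.7% falling. Of 34 genes 8 rose and 8 fell (median 0.01, or −0.20 with median centring), with 5 rises left without FXRα4 replicate 2, GFP replicate 1 or GFP replicate 2, and 5 falls left without FXRα4 replicate 3. Cpt1a, which admits long chain fatty acids to mitochondria, stood at 8.59, 8.61 and 8.59 with FXRα4, against 9.17, 9.22 and 9.20 with GFP (−0.60 ± 0.05, adjusted p = 1.69e-09). The arrays of each group were nearly equal and the groups were far apart. The carnitine acetyltransferase gene Crat stood at 7.99, 7.91 and 7.85 with FXRα4, against 8.92, 8.99 and 8.96 with GFP (−1.04 ± 0.06), and the electron transfer gene Etfdh fell by 0.49. Decr2, a peroxisomal reductase, rose by 0.37 ± 0.06. The peroxisomal multifunctional enzyme gene Hsd17b4 fell by 0.41 to 9.05, 8.94 and 9.04 with FXRα4, against 9.45, 9.38 and 9.43 with GFP. The 5 ketogenesis genes had 3 rises and 2 falls (median 0.35, or 0.14 with median centring). The acetyl-CoA acetyltransferase gene Acat1 fell by 0.40 and the ketone body exporter gene Slc16a6 rose by 0.53 ± 0.07.

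Genes of fatty acid and triglyceride synthesis fell more often than they rose. Of 30 genes 5 rose (16.7%) and 13 fell (43.3%), with a median of −0.11 (−0.32 with median centring). Gpam, which takes the first step of triglyceride assembly, stood at 9.54, 9.56 and 9.54 with FXRα4, against 10.36, 10.44 and 10.38 with GFP (−0.85 ± 0.05). Elovl5, a fatty acid elongase, stood at 9.71, 9.89 and 9.70 with FXRα4, against 10.49, 10.55 and 10.63 with GFP (−0.79 ± 0.05). Both were lower on every FXRα4 array than on any GFP array. The phosphatidate phosphatase gene Lpin1 fell by 0.71, the lipogenic hormone gene Angptl8 by 0.65 and the malic enzyme gene Me1 by 0.37. The rises included the elongase genes Elovl4 and Elovl3 (1.11 ± 0.18) and the phosphatase gene Lpin3, at 7.71, 7.63 and 7.91 with FXRα4, against 6.20, 6.49 and 6.39 with GFP (1.39 ± 0.10). Of 21 cholesterol genes 8 rose and 5 fell, with a median of 0.06 that became −0.15 with median centring. Here the synthase gene Hmgcs1 rose by 0.48 ± 0.05 and the regulator gene Srebf2 by 0.36 ± 0.05, whereas the desaturase gene Sc5d fell by 0.45 and the farnesyl diphosphate synthase gene Fdps by 0.28.

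Genes of lipoprotein metabolism rose more often than they fell. Of 28 genes of apolipoproteins, lipases, transfer and receptors 13 rose and 4 fell (median 0.17, but −0.04 with median centring). The 14 apolipoprotein genes among them had 7 rises and 0 falls (median 0.18, but −0.03 with median centring). Apoa2 stood at 11.67, 11.49 and 11.62 with FXRα4, against 11.03, 11 and 10.96 with GFP (0.60 ± 0.05), Apoa1 at 11.68, 11.70 and 11.82 with FXRα4, against 11.36, 11.38 and 11.35 with GFP (0.37 ± 0.04), and both are apolipoproteins of HDL. Lipg, an endothelial type lipase that acts on HDL, stood at 5.57, 6.06 and 6.07 with FXRα4, against 4.17, 3.91 and 4.06 with GFP (1.85 ± 0.15). The receptor genes Vldlr (0.75 ± 0.07) and Sort1 (0.72 ± 0.08) rose. Angptl4, an inhibitor of lipoprotein lipase, stood at 8.94, 9.11 and 8.98 with FXRα4, against 9.67, 9.83 and 9.60 with GFP (−0.69 ± 0.07). Its fall separated the groups as fully as the rises did.

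Several factors that keep hepatocytes differentiated rose. Of 18 hepatocyte transcription factor genes 10 rose (55.6%) and 3 fell, with a median of 0.36 (0.15 with median centring). Hnf4a, a central factor of hepatocyte identity, stood at 10, 9.86 and 9.98 with FXRα4, against 9.01, 9.10 and 9.16 with GFP (0.86 ± 0.05). Prox1 stood at 8.23, 8.13 and 8.27 with FXRα4, against 7.30, 7.09 and 7.16 with GFP (1.03 ± 0.10), and Foxa1 stood at 8.59, 8.52 and 8.52 with FXRα4, against 7.89, 7.89 and 7.95 with GFP (0.63 ± 0.07). The FXRα4 arrays of these 3 genes were all above the GFP arrays. Gata6 rose by 0.80 ± 0.06, Tbx3 by 0.58 ± 0.09 and Cebpa by 0.42 ± 0.07, while Onecut2 fell by 0.29. Among 29 nuclear receptors 5 rose and 5 fell (median −0.05, or −0.26 with median centring). That is 17.2% each way, near the shares of all genes (18.0% rose and 15.7% fell). The orphan receptor gene Nr4a3 rose by 1.45 ± 0.13 and the retinoic acid receptor gene Rara by 0.49 ± 0.08, whereas Nr2f6 fell by 0.61 and Ppard by 0.43.

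Genes of secreted liver proteins also rose more often than they fell. Of 32 acute phase genes 17 rose (53.1%) and 5 fell, with a median of 0.22 (0.01 with median centring). The orosomucoid genes led: Orm3 stood at 7.42, 7.59 and 7.83 with FXRα4, against 5.77, 5.52 and 5.38 with GFP (2.06 ± 0.11), and Orm2 stood at 10.04, 10.20 and 10.12 with FXRα4, against 9.26, 9.16 and 9.0 with GFP (0.98 ± 0.07). Sequences of the Orm genes are close, so their probe sets may share signal. Il6ra, the receptor through which IL-6 starts this response, stood at 7.05, 7.15 and 7.18 with FXRα4, against 8.06, 8.11 and 8.13 with GFP (−0.97 ± 0.07), and the pentraxin gene Apcs fell by 0.67. Among 39 complement and coagulation genes 17 rose and 4 fell (median 0.14, but −0.07 with median centring), with rises in the antithrombin gene Serpinc1 (0.46 ± 0.04), the antiplasmin gene Serpinf2 (0.54 ± 0.07) and the plasminogen gene Plg (0.38 ± 0.06) and falls in the coagulation factor gene F7 (−0.52 ± 0.10) and the complement protease gene C1s1 (−0.50 ± 0.07).

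Of 49 genes of amino acid catabolism and the urea cycle 23 rose (46.9%) and 11 fell (22.4%), against 18.0% and 15.7% of all genes. Their median was 0.16, but −0.05 with median centring. Hgd, which opens the ring of homogentisate in tyrosine breakdown, stood at 6.70, 6.38 and 6.79 with FXRα4, against 5.59, 5.35 and 5.24 with GFP (1.23 ± 0.13), so 1 step of that route rose while Tat, its entry step, fell. The urea cycle gene Asl rose by 0.64 ± 0.06, the branched chain gene Bckdhb by 0.77 ± 0.05 and the methyl cycle gene Ahcy, at 11.74, 11.71 and 11.80 with FXRα4, against 11.20, 11.19 and 11.22 with GFP, by 0.55 ± 0.04. Bckdk, the kinase that turns off the branched chain dehydrogenase, fell by 0.75. Of 35 glucose genes 11 rose and 6 fell (median −0.02, or −0.23 with median centring), with 3 falls left without FXRα4 replicate 2. The rises were 31.4% and the falls 17.1%, against 18.0% and 15.7% of all genes. Hk1, a hexokinase of most tissues other than liver, stood at 6.88, 7.09 and 7.48 with FXRα4, against 5.73, 5.70 and 5.84 with GFP (1.39 ± 0.14). Pklr, the liver pyruvate kinase gene, stood at 11.05, 10.99 and 10.81 with FXRα4, against 11.51, 11.58 and 11.58 with GFP (−0.61 ± 0.06). The glucose 6-phosphatase gene G6pc3 (0.68 ± 0.07) and the glycogen targeting gene Ppp1r3c (0.82 ± 0.12) rose. Of 50 cytochrome P450 and phase 2 genes 15 rose and 8 fell (median 0.12, but −0.09 with median centring), with 4 falls without GFP replicate 2. The sulfotransferase genes Sult1d1 (1.53 ± 0.09) and Sult1b1 (1.05 ± 0.12), Cyp3a13 (0.65 ± 0.08) and Cyp2e1 (0.47 ± 0.05) rose, and the glucuronosyltransferase gene Ugt2b35 fell by 0.70. Of 32 respiratory chain genes 4 rose and 9 fell (median −0.04, or −0.25 with median centring), the falls being led by Uqcrfs1 (−0.81 ± 0.07) of complex III and Ndufa2 (−0.71 ± 0.06) of complex I. Rises were 12.5% of this list, below the 18.0% of all genes, and falls 28.1%, above the 15.7%.

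Antioxidant genes fell more often than they rose, and Nqo1 was the largest rise among them. NRF2 (Nfe2l2) is the factor that turns on genes of glutathione supply and detoxification under oxidative stress. Of 42 genes of this group 6 rose (14.3%) and 20 fell (47.6%), with a median of −0.13 (−0.35 with median centring). Among the 20 glutathione genes 1 rose and 10 fell. Gclm, the modifier subunit of the rate-limiting enzyme of glutathione synthesis, stood at 10.11, 10.26 and 10.31 with FXRα4, against 10.86, 10.95 and 10.91 with GFP (−0.68 ± 0.05). Gsta4, the transferase that clears the lipid peroxidation product 4-hydroxynonenal, stood at 6.40, 6.22 and 6.36 with FXRα4, against 7.32, 7.18 and 7.15 with GFP (−0.89 ± 0.07). No array of Gclm or Gsta4 crossed into the other group's range. Gsta3 stood at 10.56, 10.51 and 10.52 with FXRα4, against 11.11, 11.06 and 11.14 with GFP (−0.57 ± 0.04). Aox1, an aldehyde oxidase gene, stood at 7.50, 7.48 and 7.49 with FXRα4, against 8.72, 8.90 and 8.83 with GFP (−1.33 ± 0.06). These 2 and Osgin1 were lower on each FXRα4 array than on any GFP array. Nqo1, the quinone reductase that is the textbook NRF2 target, went the other way, at 8.37, 8.45 and 8.41 with FXRα4, against 6.97, 6.99 and 6.97 with GFP (1.43 ± 0.07, adjusted p = 1.49e-12). Its difference from GFP was 1.23 with FXRα2, 1.41 with FXRα3 and 1.1 with FXRα1, from the same GFP arrays. The core of the antioxidant response element, TGACNNNGC on either strand, was in 9 of 36 windows of the group (25%) and in 14.0% of all windows. It was also in 22.2% of replication gene windows and 17.4% of mitosis gene windows, so it was not particular to this group. The search was chosen after the data were seen.

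**Figure D4:**
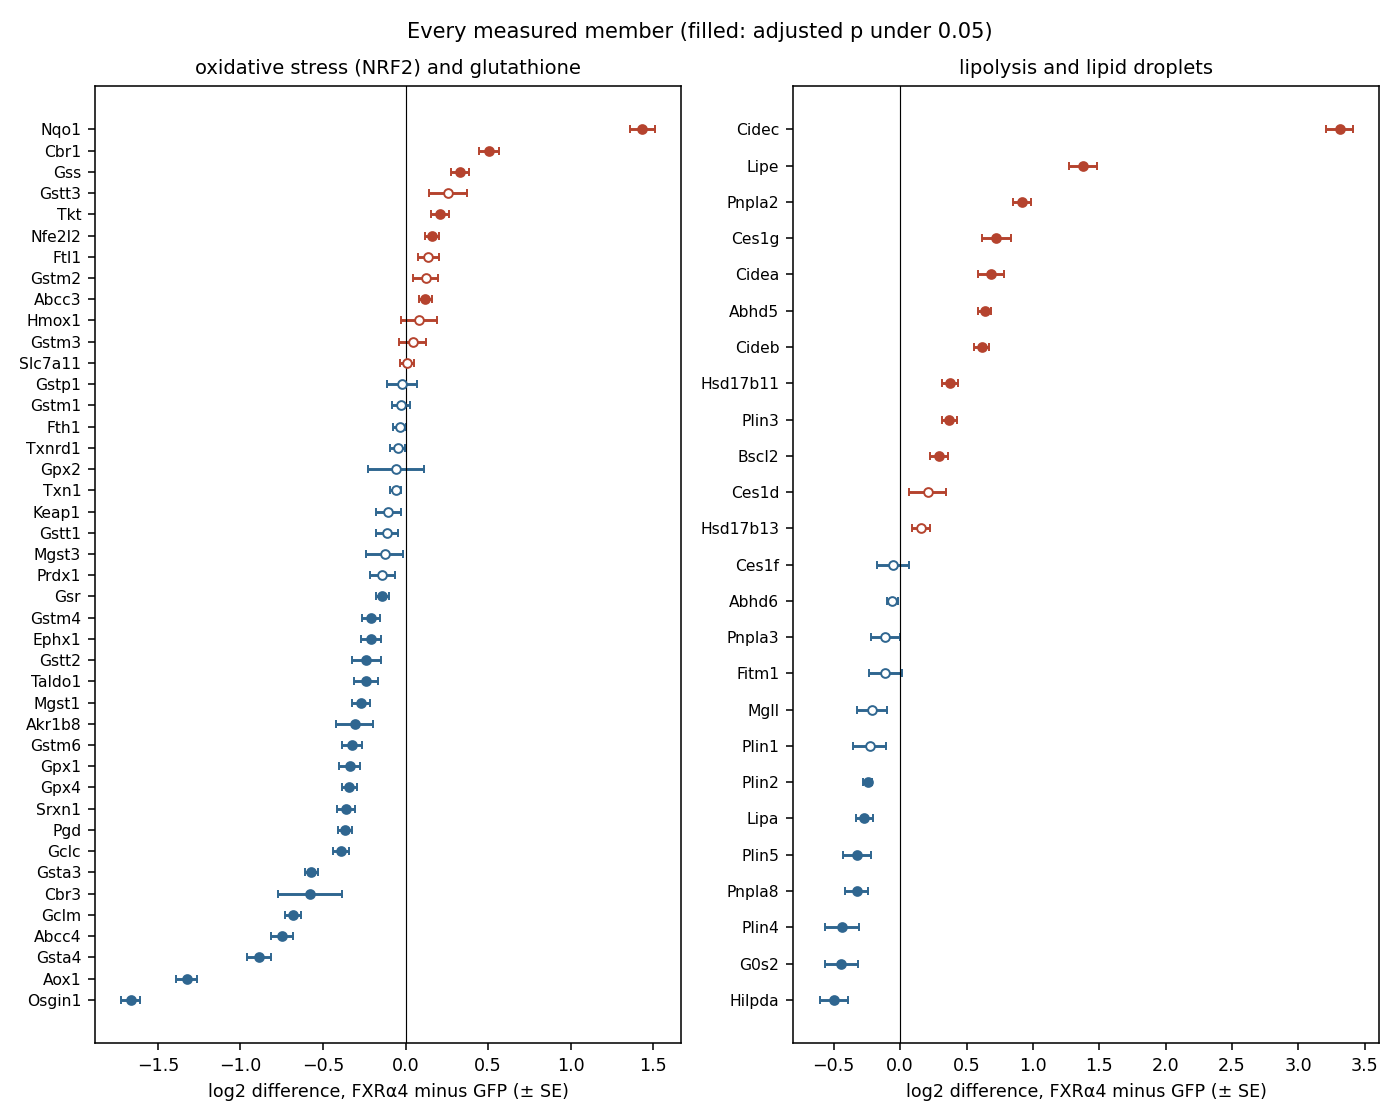
Log2 difference between FXRα4 and GFP (horizontal axes, with ± SE from limma) for all 42 measured genes of oxidative stress (left) and all 25 of lipolysis and lipid droplets (right); filled points have an adjusted p under 0.05. Nqo1 stands alone at the top of the left panel at 1.43 while 20 genes fell, and Cidec leads the right panel at 3.31.

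Stress pathways were divided. Of 36 genes of ER stress and the integrated stress response 10 rose and 10 fell (median 0.04, or −0.17 with median centring). The chaperone cofactor gene Sdf2l1 stood at 10.28, 10.31 and 10.48 with FXRα4, against 9.03, 9.25 and 9.35 with GFP (1.15 ± 0.09), and Atf3 rose by 0.85 ± 0.06. Asns, an amino acid response gene, fell by 0.63 to 10.82, 10.89 and 10.88 with FXRα4, against 11.45, 11.48 and 11.54 with GFP, and Chac1, a glutathione-degrading gene of the same response, fell by 0.81. Of 18 p53 response genes 5 rose (27.8%) and 6 fell (33.3%), with a median of −0.04 (−0.25 with median centring). Fas, the death receptor gene, stood at 8.58, 8.49 and 8.76 with FXRα4, against 7.02, 7.01 and 6.94 with GFP (1.62 ± 0.11), and its difference from GFP was 0.23 with FXRα2 and −0.03 with FXRα3. Sesn1 rose by 0.95 ± 0.10, whereas Plk2 fell by 0.72 and Cdkn1a, as given above, fell.

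**Figure D5:**
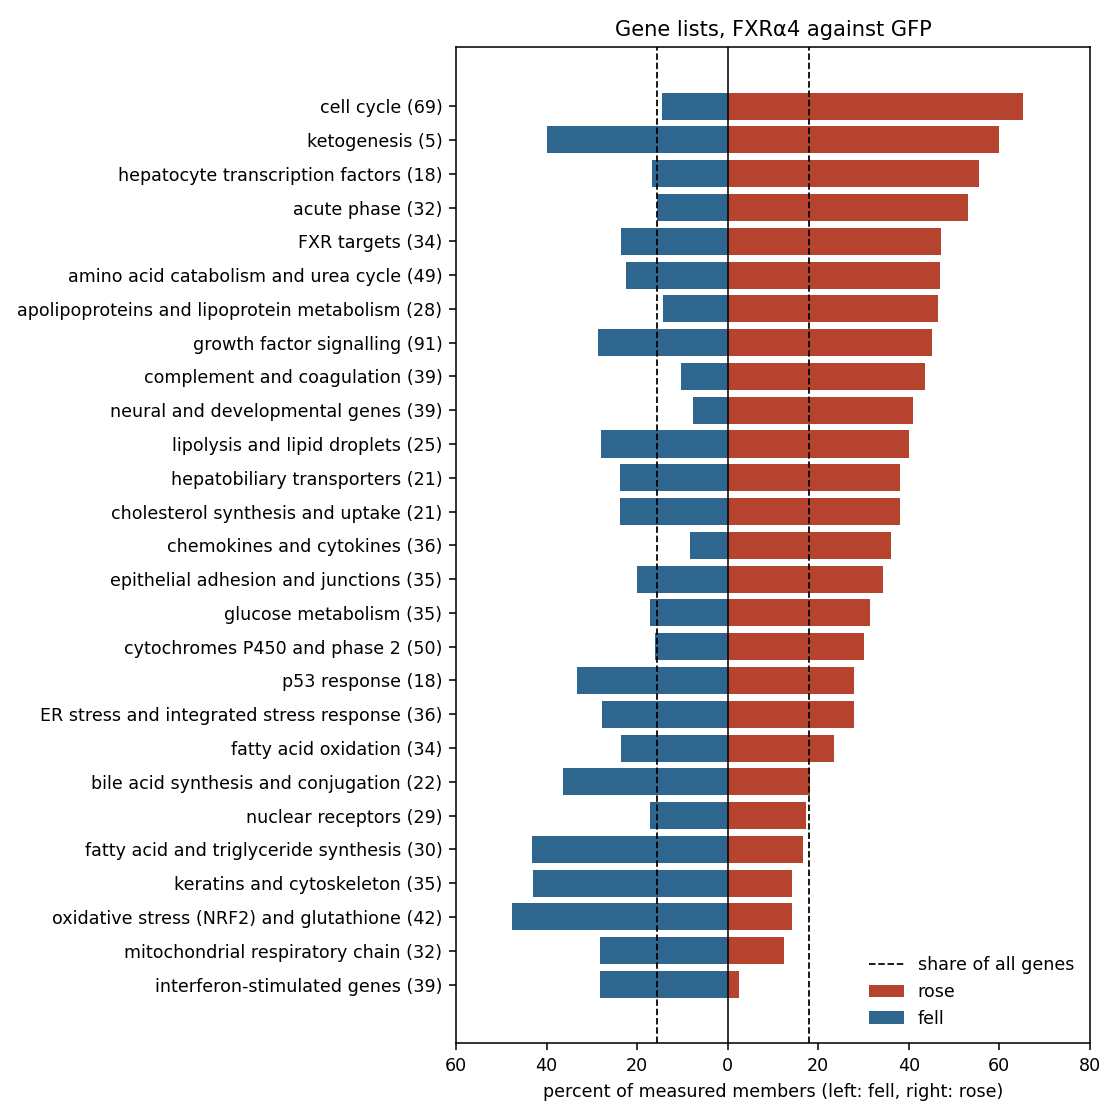
Share of measured members of 27 gene lists that fell (left of 0) and rose (right of 0), FXRα4 against GFP, with the number of measured members in brackets; dashed lines mark the shares of all 18820 genes, 15.7% and 18.0%. The cell cycle list has the highest share of rises and the oxidative stress list the highest share of falls.

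Genes of epithelial character changed in part. Of 35 adhesion and junction genes 12 rose and 7 fell (median 0.06, but −0.15 with median centring). Beside Epcam, the E-cadherin gene Cdh1 stood at 11.06, 11.14 and 11.14 with FXRα4, against 10.38, 10.39 and 10.32 with GFP (0.75 ± 0.05). Gjb2, a gap junction gene of hepatocytes, stood at 10.31, 10.38 and 10.35 with FXRα4, against 9.11, 9.21 and 9.28 with GFP (1.14 ± 0.05), while the tight junction gene Cldn1 fell by 0.89 to 7.98, 7.93 and 7.77 with FXRα4, against 8.74, 8.77 and 8.83 with GFP. Of 35 keratin and cytoskeleton genes 5 rose and 15 fell (median −0.13, or −0.34 with median centring). Krt19, a keratin of bile duct cells that hepatocytes gain in culture, stood at 8.29, 8.29 and 8.75 with FXRα4, against 9.26, 9.44 and 9.42 with GFP (−0.93 ± 0.09). The lamin gene Lmna (−0.68 ± 0.04) and the annexin gene Anxa3 (−0.55 ± 0.03) fell too. Of 9 cholangiocyte markers 3 rose (Epcam, Cd24a and Sox9), Krt19 fell, and Krt7 and 4 others did not pass. Cd24a stood at 6.48, 7.05 and 6.83 with FXRα4, against 5.23, 5.32 and 5.60 with GFP (1.40 ± 0.14) and Sox9 at 8.61, 8.69 and 8.64 with FXRα4, against 7.55, 7.63 and 7.55 with GFP (1.07 ± 0.07). The mean level of the 9 markers was 6.36 to 6.42 with FXRα4 and 5.70 to 5.77 with GFP. Krt7 stood at 4.63, 4.65 and 4.59 with FXRα4, against 4.68, 4.88 and 4.77 with GFP (−0.15 ± 0.10, adjusted p = 0.261), and it passed as a fall with quantile normalization (−0.258, adjusted p = 0.0231) and with median centring (−0.365, adjusted p = 0.00794). The part of cholangiocytes in these changes was not tested.

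Growth factor signalling moved in both directions, with 41 rises and 26 falls among 91 genes. In the BMP and TGF-beta group 13 of 21 genes rose and 3 fell (median 0.56, or 0.35 with median centring). The ligand gene Bmp2 stood at 7.62, 7.67 and 7.83 with FXRα4, against 5.22, 5.18 and 4.94 with GFP (2.59 ± 0.11), whereas Bmp6, which drives hepcidin in liver, stood at 8.55, 8.35 and 8.50 with FXRα4, against 9.81, 9.75 and 9.74 with GFP (−1.30 ± 0.07). In the ERK feedback group 12 of 20 genes rose and 5 fell (median 0.29, or 0.08 with median centring). The immediate early gene Egr1 stood at 9.66, 9.72 and 9.50 with FXRα4, against 7.74, 7.95 and 7.73 with GFP (1.83 ± 0.09), and the phosphatase gene Dusp4 rose by 1.79 ± 0.09. Among receptors, the IGF1 receptor gene Igf1r, which adult hepatocytes hold at low levels, stood at 7.28, 7.15 and 7.40 with FXRα4, against 4.55, 4.66 and 4.35 with GFP (2.76 ± 0.14), with no overlap between groups. The neuregulin receptor gene Erbb3 rose by 0.90 ± 0.05. Of 12 targets of the Hippo pathway factor YAP 3 rose and 7 fell (median −0.18, or −0.39 with median centring).

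Of 36 chemokine and cytokine genes 13 rose and 3 fell (median 0.09, but −0.12 with median centring). Cxcl2, a neutrophil attractant, stood at 9.13, 9.44 and 9.28 with FXRα4, against 6.89, 6.98 and 6.78 with GFP (2.40 ± 0.09). Cxcl10 stood at 8.39, 8.78 and 8.51 with FXRα4, against 7.46, 7.63 and 7.32 with GFP (1.09 ± 0.10), although it is best known as an interferon target. Among 39 interferon-stimulated genes there were 11 falls and 1 rise, with a median of −0.22 (−0.43 with median centring). GFP replicate 1 stood apart here. The mean level of the 39 genes was 6.03, 5.95 and 6.02 with FXRα4, against 6.51, 6.10 and 6.05 with GFP. Without GFP replicate 1 the list had 3 rises and 5 falls and a median of −0.06, while without FXRα4 replicate 1 it had 1 rise and 7 falls and without FXRα4 replicate 2 it had 2 and 8. Ifih1, a sensor of viral RNA, stood at 7.44, 7.29 and 7.33 with FXRα4, against 8.45, 8.20 and 8.03 with GFP (−0.87 ± 0.09), and the antiviral gene Ifi27 at 8.02, 8.21 and 8.03 with FXRα4, against 9.05, 8.80 and 8.56 with GFP (−0.72 ± 0.10). Both calls held when GFP replicate 1 was left out.

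Of 39 neural and developmental genes, genes best known from other tissues, 16 rose, 12 of them by at least 2-fold, and 3 fell. The median was 0.03 (−0.18 with median centring), and 20 members did not pass. Without FXRα4 replicate 2, GFP replicate 2 or GFP replicate 3 there was 1 fall. Zic2, a zinc finger factor of neural development, stood at 6.56, 6.65 and 6.50 with FXRα4, against 3.93, 3.92 and 3.81 with GFP (2.68 ± 0.13), and the neuronal calcium channel gene Cacna1b stood at 6.24, 6.37 and 6.61 with FXRα4, against 4.07, 4.16 and 4.16 with GFP (2.28 ± 0.12). The brain creatine kinase gene Ckb was uneven between arrays, at 8.04, 7.58 and 8.44 with FXRα4, against 4.91, 5.70 and 5.57 with GFP (2.63 ± 0.20). Irx3, an Iroquois homeobox gene, rose by 2.40 ± 0.15, but its dimmer probe set stood at 0.21 (adjusted p = 0.215).

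The direct comparison with FXRα2 set FXRα4 beside the other form without the insert, which has the shorter N-terminus, with 3 arrays of each form. The amount of each human form was not measured here. A difference between forms therefore cannot be told apart from a difference in the amount of receptor or in infection. Mitosis genes were mostly higher with FXRα4 than with FXRα2, and genes of the acute phase, amino acid catabolism and fatty acid oxidation were more often lower than higher. Of 18820 genes 2205 were higher and 2251 lower with FXRα4, which is 23.7% of genes, and 202 of them (1.07%) differed by at least 2-fold, 75 higher and 127 lower. With 16 added to the linear values 36 were higher and 83 lower by at least 2-fold.

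Mitosis genes were higher with FXRα4 than with FXRα2 in 23 of 26 cases and lower in 0 (median 0.93, or 0.94 with median centring, against 0.02 for all genes). Bub1 stood at 5.36, 5.78 and 6.47 with FXRα4, against 3.56, 3.63 and 4.25 with FXRα2 (2.06 ± 0.20, adjusted p = 1e-07). Pclaf stood at 8.32, 8.23 and 8.68 with FXRα4, against 6.18, 6.27 and 6.63 with FXRα2 (2.05 ± 0.14). Ncapg stood at 5.64, 5.79 and 6.38 with FXRα4, against 3.85, 4.03 and 4.21 with FXRα2 (1.91 ± 0.16). The groups of these 3 genes did not overlap, and all rank among the 10 largest excesses over FXRα2, together with Cep55 (1.86 ± 0.17), Aurkb (1.58 ± 0.16), the cohesin protector gene Sgo2a (1.72 ± 0.21), and Kif18b, which has a second probe set that did not pass against FXRα2 either (0.17, adjusted p = 0.229). The 3 genes outside cell division were Elovl4 (1.84 ± 0.12), the adenylate cyclase gene Adcy2 (1.62 ± 0.14) and the podocalyxin gene Podxl (1.54 ± 0.10). Fas was higher by 1.39 ± 0.11 and Cdk1 by 1.08 ± 0.08.

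The 10 largest deficits against FXRα2 lay elsewhere. Ramp3, a partner of the calcitonin receptor family, stood at 3.57, 3.33 and 3.43 with FXRα4, against 6.04, 5.91 and 6.17 with FXRα2 (−2.60 ± 0.12, adjusted p = 2.12e-12), while the GFP arrays were at 3.47, 3.69 and 3.51. Its FXRα4 and GFP values lie in the range of the dimmest 4705 genes, so the size of its deficit is uncertain. Ckb stood at 8.04, 7.58 and 8.44 with FXRα4, against 10.53, 10.24 and 10.86 with FXRα2 (−2.52 ± 0.20). Slc8b1, a mitochondrial sodium calcium exchanger, stood at 6.91, 6.91 and 6.79 with FXRα4, against 8.79, 8.80 and 9.04 with FXRα2 (−2.0 ± 0.08), and its GFP arrays lay between them. The others were Hapln4 (−2.13 ± 0.10), St6galnac4 (−2.07 ± 0.14), the liver mitochondrial carrier gene Slc25a47 (−2.06 ± 0.13), Rtp3 (−2.03 ± 0.12), Efhd1 (−2.03 ± 0.17), Rspo4 (−2.02 ± 0.16) and the neprilysin gene Mme (−1.97 ± 0.11). For Epcam the groups were close, 9.67, 9.63 and 9.79 with FXRα4 and 9.80, 9.93 and 10.18 with FXRα2 (−0.27 ± 0.10, adjusted p = 0.0496), a call lost when any of these arrays but FXRα2 replicate 1 was left out, with adjusted p-values of 0.0515 to 0.287.

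By list, amino acid catabolism genes were lower than with FXRα2 in 24 of 49 cases and higher in 1 (median −0.22, or −0.21 with median centring), with 2 higher without FXRα2 replicate 3. Of 34 fatty acid oxidation genes 17 were lower and 1 higher (median −0.18, or −0.17 with centring), and of 32 acute phase genes 17 were lower and 0 higher (median −0.25, or −0.24 with centring). Of the FXR targets 14 were lower and 2 higher (median −0.15, or −0.14 with centring, and −0.09 without FXRα2 replicate 1), and of the adhesion and junction genes 18 were lower and 3 higher (median −0.23, or −0.22 with centring). Abcb11 stood at 7.08, 7.03 and 7.03 with FXRα4, against 8.46, 8.41 and 8.73 with FXRα2 (−1.49 ± 0.13, adjusted p = 1.1e-08). Cpt1a was lower by 0.85, and Nr1i2, the gene of the xenobiotic receptor PXR, by 1.95. Orm2 was lower by 1.13 and Hgd by 1.89. Cidec was lower by 0.42, at 9.38, 9.27 and 9.40 with FXRα4 and 9.68, 9.71 and 9.94 with FXRα2. Lipe, in contrast, was higher with FXRα4 than with FXRα2 (0.39 ± 0.11, adjusted p = 0.00947), although the groups overlap, a call lost without FXRα2 replicate 2 or FXRα4 replicate 3.

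The direct comparison with FXRα3 set FXRα4 beside the other form with the longer N-terminus, which carries the insert. Here too, form and amount of receptor cannot be told apart. Of 18820 genes 2973 were higher and 2588 lower with FXRα4, which is 29.5% of genes, and 380 (2.02%) differed by at least 2-fold, 312 higher and 68 lower. With median centring 213 were higher and 144 lower by at least 2-fold, and with 16 added to the linear values 185 and 47. Median centring moved the median of all genes by −0.17 and left 1697 higher and 7503 lower, so that 18.4% of the calls were upward, against 53.5% on the deposited scale.

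The largest excess over FXRα3 was in Epcam. Epcam stood at 9.67, 9.63 and 9.79 with FXRα4, against 5.86, 5.56 and 5.87 with FXRα3 (3.94 ± 0.10, adjusted p = 3.25e-17). Cep55 stood at 7.03, 7.18 and 7.55 with FXRα4, against 3.92, 3.81 and 3.90 with FXRα3 (3.37 ± 0.17), and Cidec at 9.38, 9.27 and 9.40 with FXRα4, against 6.39, 6.10 and 6.50 with FXRα3 (3.02 ± 0.10). Slc17a1, a sodium phosphate transporter gene, stood at 8.70, 8.65 and 8.79 with FXRα4, against 6.02, 5.83 and 5.95 with FXRα3 (2.78 ± 0.10), and it was 2.34 ± 0.10 above GFP. Groups of these 4 genes lay far apart. All 26 mitosis genes were higher with FXRα4 than with FXRα3, against 15.8% of all genes (median 1.41, or 1.23 with median centring). Abcb11 was higher with FXRα4 than with FXRα3 by 1.38 ± 0.13, Pnpla2 by 0.76 ± 0.07 and Lipe by 1.13 ± 0.11, and Creb3l3 by 2.10 ± 0.07.

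The largest deficit was in Krt19, at 8.29, 8.29 and 8.75 with FXRα4, against 11.12, 11.04 and 11.23 with FXRα3 (−2.69 ± 0.09, adjusted p = 3.29e-15), while its GFP arrays lay between. The carbonyl reductase gene Cbr3 stood at 4.87, 4.55 and 5.14 with FXRα4, against 7.04, 6.82 and 7.59 with FXRα3 (−2.29 ± 0.19). Sema3e, a guidance ligand gene, was lower by 1.84 and Umps by 1.66. Of 42 oxidative stress and glutathione genes 3 were higher and 21 lower than with FXRα3 (median −0.15, or −0.32 with median centring, against −0.02 for all genes). Gsta4 stood at 6.40, 6.22 and 6.36 with FXRα4, against 7.78, 7.69 and 7.82 with FXRα3 (−1.44 ± 0.07), and Gclm was lower by 0.81. Nqo1 stood at 8.37, 8.45 and 8.41 with FXRα4 and 8.34, 8.37 and 8.44 with FXRα3, groups that overlap, and the difference was 0.03 ± 0.07, adjusted p = 0.842.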

How the data were processed

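RNA of 15 hepatocyte cultures was read on Affymetrix mouse arrays, 3 per group. The submitters' processing notes name Affymetrix Expression Console 1.1 and PLIER, with no role or order. The deposited values are 1 number per probe set on a log2 scale, as the authors deposited them; the base is inferred from their range of 1.93 to 13.8, while no source used here gives the background correction, the normalization or the genome build. Of 35556 probe sets 21218 have a single symbol in the platform annotation, 1881 have several and 12457 have none. The 18820 genes were each represented by the probe set with the highest mean over 15 arrays, since 1386 genes had more than 1.

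With limma 3.58.1 (R 4.3.3), a model of 5 group means was fitted on the 15 arrays together, using eBayes with a mean-variance trend. P-values were adjusted by Benjamini-Hochberg over all genes, with a threshold of 0.05. FXRα4 was compared with GFP, FXRα2 and FXRα3. Named genes were drawn from the 15 largest rises and falls against GFP, the 8 largest each way above the 75th percentile of mean level and the 10 largest each way of each direct comparison, with groups that do not overlap and predicted genes passed over. Added to these were, per gene list, as many as 6 members ranked by adjusted p against GFP and 3 against each other form, all members of the FXR target, bile acid, transporter and lipolysis lists, and Nr1h4. Gene lists and members were chosen with earlier results of these data known. Alternatives were median and 75th percentile centring, quantile normalization, low-level filters, 16 added to the linear values, every probe set tested, no trend, robust variances, array weights, fitting only the groups compared, a fold minimum, a replicate block and leaving out each array. Deviations of same-numbered arrays correlated at 0.13, 0.183 and 0.425 for FXRα4 with FXRα2 and at 0.328, 0.15 and 0.357 for FXRα4 with FXRα3. All were above 0.1, a chosen threshold. The arrays may therefore be paired by number, but arrays of unlike number were not compared. The labels do not say what a number marks. The scripts were tested on simulated data.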

Additional observations from a re-analysis of the deposited data

Results flagged for a closer look

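FXRα4 lowered Gsta4 by 0.89, whereas its difference from the same GFP arrays was 0.70 with FXRα2 and 0.55 with FXRα3. The direct differences were −1.59 from FXRα2 (limma adjusted p = 2.12e-12) and −1.44 from FXRα3 (adjusted p = 2.35e-12). All genes in these paragraphs are given because FXRα4 and another form differed from GFP in opposite directions and limma's direct test of the 2 forms passed.

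The values here are the direct differences. FXRα4 was below FXRα2, and on the other side of GFP, by −0.85 for Cpt1a, −0.66 for Hsd17b4, −1.26 for Angptl8, −2.0 for Slc8b1, −0.79 for Nr0b2, −1.95 for Nr1i2, −0.64 for Ppard and −0.69 for Scarb1. For Nr0b2 the call against GFP did not hold without FXRα4 replicate 2, FXRα4 replicate 3 or GFP replicate 1, and for Nr1i2 not without GFP replicate 1.

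FXRα4 was below FXRα3, with FXRα3 above GFP, by −2.69 for Krt19, −2.29 for Cbr3, −1.84 for Sema3e, −1.66 for Umps, −0.96 for Bckdk, −0.77 for Asns and −0.69 for Abcc2. It was above FXRα3, with FXRα3 below GFP, by 2.78 for Slc17a1, 1.41 for Sort1, 1.14 for Cebpa and 0.64 for Decr2. The fall of Cbr3 against GFP was −0.58 and did not hold under several other settings.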

How the results depend on the processing

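With each array centred on its median, 11787 genes changed between FXRα4 and GFP, 1927 rising and 9860 falling, and 9200 differed from FXRα3, 1697 higher and 7503 lower. With a fold minimum of 1.5, 1799 genes changed against GFP (1197 rose, 602 fell), 829 against FXRα2 (348 higher, 481 lower) and 1347 against FXRα3 (923 higher, 424 lower). The other settings kept these counts within 1.5 times, and leaving out single arrays gave 5601 to 6081 changed genes against GFP. For FXRα4 with GFP, deviations of same-numbered arrays correlated at −0.21, 0.00415 and 0.0437, none above the threshold of 0.1. With the replicate number as a block 7062 genes changed (3734 rose, 3328 fell). Against FXRα2 and FXRα3, whose numbers may pair with those of FXRα4, 5196 and 6297 genes differed with the replicate block. The block ended no call of a gene named in those comparisons. The difference of Nqo1 from FXRα3, which did not pass, was −0.145 with median centring.

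Depth is not defined for arrays, and 3 arrays a group limit the precision. No detection call was used here, so the size of differences of dim genes is less certain. Probe sets of close relatives can share signal.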
